A study of Mus musculus with 8 samples.

Results

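The striatal projection neuron genes described here are a list of 9 genes: the receptor genes Drd1, Drd2 and Adora2a, the signalling genes Ppp1r1b, Pde10a, Rgs9 and Rasd2, and the neuropeptide genes Penk and Tac1. They were listed by name as markers of one cell class, and the rule itself uses no value, but the list was drawn up with earlier results of these arrays known. Values were read for 7 of the 9, each from 1 probe set with exactly 1 gene symbol, out of 22180 genes with such a probe set. The probe set that carries Ppp1r1b carries a second gene symbol too and was left out, and Adora2a is not analysed here. On GRCm38.p6 the 7 genes lie at chr13:54051183-54055658 (Drd1), chr9:49340360-49408177 (Drd2), chr17:8525187-8986648 (Pde10a), chr11:109225348-109298181 (Rgs9), chr8:75213944-75224113 (Rasd2), chr4:4133536-4138815 (Penk) and chr6:7555061-7562978 (Tac1), by the RefSeq annotation.

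Total brain RNA was measured on 8 whole-transcript microarrays, 2 for each of 4 groups. Immunization against the myelin protein MOG was common to all groups and sets off an autoimmune attack on central nervous myelin, and brains were taken on day 14, at the labelled disease maximum. The groups were C57BL/6Je/e mice given NDP-MSH, C57BL/6Je/e mice given phosphate-buffered saline (PBS), wild-type mice given NDP-MSH and wild-type mice given PBS. NDP-MSH is a stable synthetic form of the melanocortin peptide alpha-MSH, and each treated mouse received 5 µg into a vein on day 8, again on day 10 and on day 12. Mc1r, through which melanocortins darken the coat, is not functional in mice with the e/e allele, and genotypes were read from coat colour, yellow in e/e and black in wild-type. The sources used here name no unimmunized group and give no age, sex or disease score, nor do they say whether replicates were separate animals, so the spread that p-values rest on is that between the arrays and may be technical. The deposited values are taken as log2 and are centred on 0 for each probe set, so that they give differences between arrays and no level of one gene against another.

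Striatal projection neurons are the inhibitory neurons that make up most of the striatum. In the direct pathway they carry the dopamine receptor D1, which raises cAMP, and make the tachykinin precursor encoded by Tac1. In the indirect pathway they carry the dopamine receptor D2, which lowers cAMP, together with the adenosine receptor that Adora2a encodes, and make the enkephalin precursor encoded by Penk. Outside the striatum Penk, Tac1 and the dopamine receptors are also made in other brain regions, so these transcripts of a whole brain are not from striatum alone.

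Some arrays stood apart from others of their group. The Y-linked genes Eif2s3y, Kdm5d and Uty were high in both NDP-MSH e/e arrays and in PBS e/e 2 (between 2.04 and 3.31) and lay between -0.19 and 0.088 in the other 5. Xist lay at -4.46 and -4.56 in the NDP-MSH e/e arrays and between -0.82 and 0.67 in the other 6, so that PBS e/e 2 combined high Y-linked values with an Xist value far above that of the NDP-MSH e/e arrays. The 12 cerebellar genes measured had a median of -2.07 and -1.70 in the NDP-MSH wild-type arrays and between -0.067 and 0.32 in the other 6, the 7 pituitary genes had a median of 2.31 in NDP-MSH wild-type 1 and between -0.066 and 0.052 elsewhere, and the 6 olfactory bulb genes had a median of 0.48 in NDP-MSH wild-type 2, with values from -1.19 (Barhl2) to 2.23 (Cdhr1). The members' medians, and the calls of the other genes named, are given with arrays left out.

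The dopamine receptor genes were higher in wild-type than in e/e arrays under NDP-MSH, and spread widely between the PBS arrays of a genotype. Drd1 lay at -0.086 and -0.41 in NDP-MSH e/e 1 and 2, at 0.086 and -1.05 in PBS e/e, at 0.37 and 0.81 in NDP-MSH wild-type, and at 0.55 and -0.29 in PBS wild-type. Both NDP-MSH wild-type arrays were above both NDP-MSH e/e arrays, while the PBS arrays of the 2 genotypes overlapped. Drd2 lay at -0.38 and -0.23 in NDP-MSH e/e, at 0.066 and -0.20 in PBS e/e, at 0.48 and 0.45 in NDP-MSH wild-type, and at 0.63 and -0.066 in PBS wild-type. Its NDP-MSH wild-type arrays were again the higher pair under NDP-MSH, and PBS wild-type 1 was its highest array.

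Pde10a encodes a phosphodiesterase that breaks down cAMP and cGMP in these neurons. It lay at -0.29 and -0.41 in NDP-MSH e/e, at -0.048 and -0.15 in PBS e/e, at 0.048 and 0.22 in NDP-MSH wild-type, and at 0.65 and 0.096 in PBS wild-type. Pde10a was the member whose genotypes did not overlap under either treatment. Rgs9, a GTPase-activating protein that shortens D2 receptor signalling, lay at -0.20 and -0.21 in NDP-MSH e/e, at 0.083 and -0.54 in PBS e/e, at 0.22 and 0.42 in NDP-MSH wild-type, and at 0.82 and -0.083 in PBS wild-type. Rasd2, which encodes the striatum-enriched small GTPase Rhes, lay at -0.081 and -0.25 in NDP-MSH e/e, at 0.095 and -0.54 in PBS e/e, at 0.081 and 0.22 in NDP-MSH wild-type, and at 0.26 and -0.21 in PBS wild-type. For Rgs9 and Rasd2 the genotypes were apart under NDP-MSH and overlapped under PBS.

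Among the peptide genes, Penk lay at 0.035 and -0.33 in NDP-MSH e/e, at 0.24 and -0.44 in PBS e/e, at -0.052 and 0.64 in NDP-MSH wild-type, and at 0.46 and -0.035 in PBS wild-type. All 4 groups of Penk overlapped one another. Tac1, whose precursor yields substance P and neurokinin A, lay at -0.40 and -0.43 in NDP-MSH e/e, at 0.050 and -0.37 in PBS e/e, at 0.20 and 0.60 in NDP-MSH wild-type, and at 0.49 and -0.050 in PBS wild-type. The NDP-MSH e/e arrays of Tac1 were below the other 6.

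**Figure D1:**
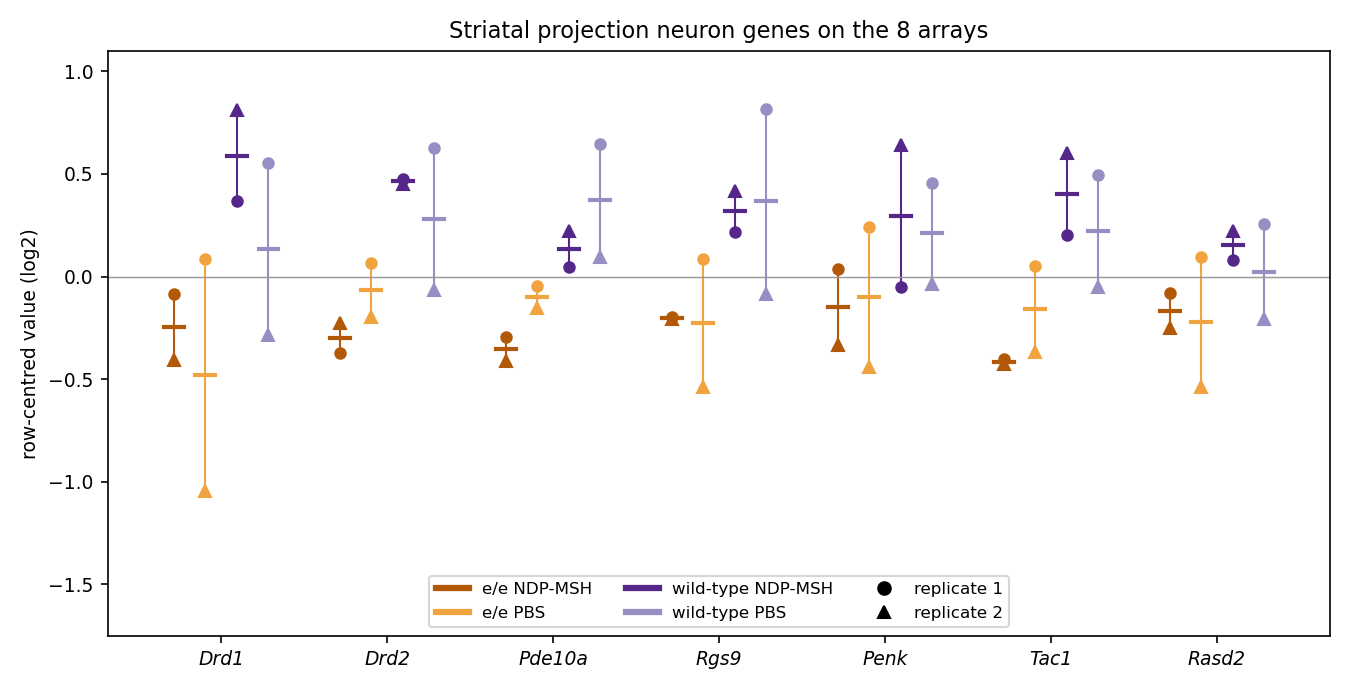
Row-centred log2 value of each of the 7 genes measured, by group from left to right NDP-MSH e/e, PBS e/e, NDP-MSH wild-type and PBS wild-type, with replicate 1 as a circle, replicate 2 as a triangle and the group mean as a bar. For every gene replicate 1 is above replicate 2 in both PBS groups, and under NDP-MSH the e/e arrays lie below the wild-type arrays for 6 of 7 genes.

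The group means ordered the same way by genotype for all 7 genes, with both e/e means below both wild-type means. Within e/e mice the lower mean was that of NDP-MSH for 4 genes (Drd2, Pde10a, Penk and Tac1) and that of PBS for 3 (Drd1, Rgs9 and Rasd2). Within wild-type mice the higher mean was that of NDP-MSH for 5 genes and that of PBS for Pde10a and Rgs9. Drd2, for example, averaged -0.30 ± 0.11 in NDP-MSH e/e, -0.065 ± 0.18 in PBS e/e, 0.46 ± 0.017 in NDP-MSH wild-type and 0.28 ± 0.49 in PBS wild-type (SD, n = 2 each). Within wild-type mice the NDP-MSH and PBS means of each of the 7 genes differed by less than the SD of the PBS arrays, and within e/e mice that held for 5 of 7, all but Drd2 and Pde10a.

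The promoter windows of 3 genes are shown because Drd1 and Drd2 define the direct and the indirect pathway and Tac1 had the smallest p of the members in the 5 comparisons fitted on all 8 arrays, leaving aside the average over treatments. Each is the 250 bases before a transcription start as annotated by RefSeq on GRCm38.p6, read 5′ to 3′ on the gene's own strand. They are chr6:7554811-7555060 (plus strand) for Tac1, chr9:49340153-49340402 (plus strand) for Drd2 and chr13:54055659-54055908 (minus strand) for Drd1, the farther upstream of 2 Drd1 starts. Capitals mark matches to TGACG or CGTCA, which is one side of the cAMP response element, and to GGGCGG or CCGCCC, the GC box.
Tac1: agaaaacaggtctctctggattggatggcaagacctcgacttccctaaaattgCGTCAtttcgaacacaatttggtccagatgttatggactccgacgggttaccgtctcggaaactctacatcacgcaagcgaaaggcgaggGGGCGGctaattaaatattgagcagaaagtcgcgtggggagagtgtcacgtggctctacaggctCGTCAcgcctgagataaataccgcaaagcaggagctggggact
Drd2: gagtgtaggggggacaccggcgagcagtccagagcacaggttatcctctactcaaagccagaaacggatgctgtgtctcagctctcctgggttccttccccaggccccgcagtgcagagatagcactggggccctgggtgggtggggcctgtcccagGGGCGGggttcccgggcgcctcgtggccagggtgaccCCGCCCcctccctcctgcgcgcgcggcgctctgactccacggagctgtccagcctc
Drd1: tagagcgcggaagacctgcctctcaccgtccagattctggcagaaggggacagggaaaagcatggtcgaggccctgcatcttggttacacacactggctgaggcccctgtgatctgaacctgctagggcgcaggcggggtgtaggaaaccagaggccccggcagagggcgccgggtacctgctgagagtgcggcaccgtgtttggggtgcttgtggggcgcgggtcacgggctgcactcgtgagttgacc
Tac1 had CGTCA 197 and 43 bases before its start and GGGCGG 107 bases before it. Drd2 had GGGCGG 93 and CCGCCC 56 bases before its start, and the Drd1 window shown had none of these matches. The window of the other Drd1 start, not shown, held GGGCGG 133 bases before that start. Across all 32851 windows of this length, 17.8% held TGACG or CGTCA and 32.7% held a GC box, so each match is common. The whole element TGACGTCA, held by 1.55% of windows, was in none of the 8 windows found for 6 of the members (all but Penk), and the GC content of these 8 lay between 51.2% and 75.2%, against a median of 52.4% over all windows. Both strands were searched for each motif, and matched letters are a description of the sequence and not evidence of binding.

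The members moved together from array to array. PBS wild-type 1 and NDP-MSH wild-type 2 were above 0 for 7 of 7 genes, PBS e/e 2 and NDP-MSH e/e 2 were below 0 for 7 of 7, and PBS e/e 1 was above 0 for 6 of 7. The median over the members was -0.20 and -0.33 in NDP-MSH e/e, 0.083 and -0.44 in PBS e/e, 0.20 and 0.45 in NDP-MSH wild-type, and 0.55 and -0.066 in PBS wild-type. Over the 8 arrays the 21 pairs of members had Pearson correlations between 0.64 (Drd1 with Pde10a) and 0.97 (Drd1 with Rasd2), with a median of 0.86. Drd1 was most like Rasd2 and Penk (0.97 and 0.90), Drd2 most like Tac1 and Rgs9 (0.94 and 0.89), and Pde10a most like Tac1 and Rgs9 (0.87 and 0.86). Penk was most like Rasd2 and Drd1 (both 0.90), Tac1 most like Drd2 and Rgs9 (0.94 and 0.90), Rgs9 most like Rasd2 and Tac1 (0.92 and 0.90), and Rasd2 most like Drd1 and Rgs9 (0.97 and 0.92). The pair of Drd2 and Tac1 thus crossed the pathways, Drd2 being a gene of the indirect and Tac1 of the direct one. The points of these correlations share the arrays, their normalization and the group differences, and they are given as a description.

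Replicates of a group differed in these genes by more than most genes did. Between the PBS replicates, 7 of 7 members were higher in replicate 1 in e/e mice and 7 of 7 in wild-type mice, where 54.9% and 50.5% of all genes were. The gap between the 2 PBS wild-type arrays ran from 0.47 (Rasd2) to 0.90 (Rgs9), with a median of 0.55 that 1.19% of all genes reached. In PBS e/e the median gap was 0.62, reached by 2.26% of all genes, and the gap for Drd1 was 1.13. Under NDP-MSH the gaps were smaller, with a median of 0.15 in e/e and 0.20 in wild-type mice, reached by 32.2% and 26.0% of all genes. In bulk brain RNA, fewer striatal cells in the sample and less RNA per striatal cell cannot be told apart.

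Most other striatal genes followed the members. Of 29 further genes of striatal projection neurons that were measured, out of 30 listed, 23 correlated with the mean of the members at above 0.5 over the 8 arrays, where 17.4% of all genes did. Among the 8 genes of highest correlation over all genes were Gng7 (0.98), which encodes the G protein gamma subunit that works with the striatal stimulatory G protein, and Pdyn (0.97), the prodynorphin gene of direct-pathway neurons, both of them on that list. The other 6 were Cracdl (0.98), Usp5 (0.97), Ncdn (0.96), Olfr898 (0.96), 2700081O15Rik (0.96) and Cytl1 (0.96). When the 2 arrays farthest from the median, PBS wild-type 1 and NDP-MSH wild-type 2, were left out, the correlations of these 8 genes lay between 0.86 and 0.97. Gng7 lay at -0.090 and -0.35 in NDP-MSH e/e, at 0.090 and -0.39 in PBS e/e, at 0.23 and 0.45 in NDP-MSH wild-type, and at 0.43 and -0.21 in PBS wild-type. As for Drd1, PBS e/e 2 was its lowest array and NDP-MSH wild-type 2 its highest. Cnr1, the cannabinoid receptor gene that many neurons outside the striatum also express, ran the other way (-0.71), as did Ebf1 (-0.55) and Strip2 (-0.43). Each of these was lowest in the NDP-MSH wild-type arrays, in which cerebellar genes were low.

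Genes of other regions did not share this pattern of arrays in full. The 10 cortical and hippocampal genes measured had a median of 0.041 and -0.024 in NDP-MSH e/e, 0.0032 and -0.26 in PBS e/e, 0.18 and 0.15 in NDP-MSH wild-type, and -0.049 and -0.18 in PBS wild-type. They were low in PBS e/e 2 like the striatal genes, and were not high in PBS wild-type 1. The 8 thalamus genes had a median of -0.14 and -0.090 in NDP-MSH e/e, -0.24 and 0.20 in PBS e/e, 0.11 and -0.61 in NDP-MSH wild-type, and 0.14 and 0.21 in PBS wild-type. The thalamus genes were thus high in PBS e/e 2, where all 7 striatal members were low, and low in NDP-MSH wild-type 2, where all 7 were high. The part of these regional differences in the results on the members was not tested.

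**Figure D2:**
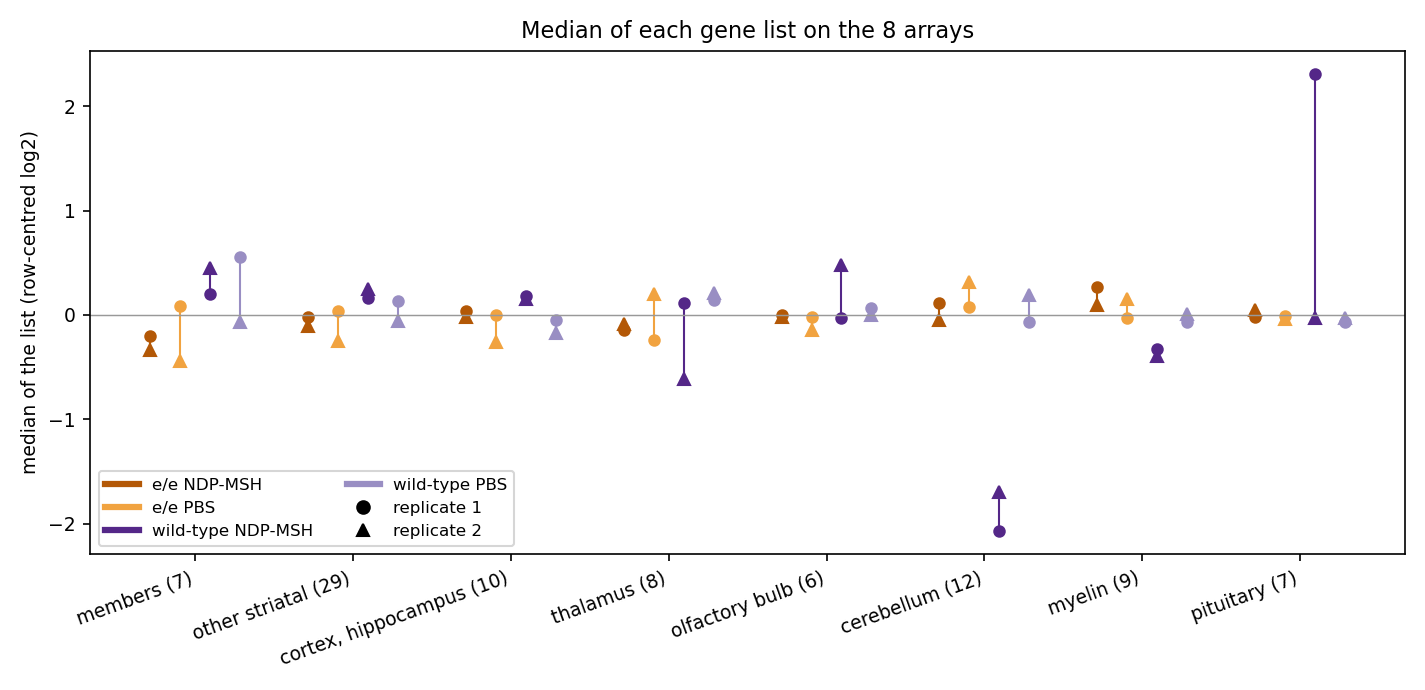
Median row-centred log2 value of each gene list on the 8 arrays, by group from left to right NDP-MSH e/e, PBS e/e, NDP-MSH wild-type and PBS wild-type, with replicate 1 as a circle and replicate 2 as a triangle, and the number of genes measured in brackets. Cerebellar genes are low in both NDP-MSH wild-type arrays, pituitary genes are high in NDP-MSH wild-type 1, and the members lie higher in replicate 1 than in replicate 2 of both PBS groups.

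The first treatment comparison asks what NDP-MSH did in e/e mice, in which Mc1r does not work. None of the 7 members passed an adjusted p of 0.05 (limma), nor did any of the 22180 genes (percent called 0). An unadjusted p under 0.05 was reached by 789 genes, 3.56% of all. The members' differences, NDP-MSH minus PBS, ran from -0.26 (Tac1) to 0.23 (Drd1) with a median of -0.048, against 0.0082 over all genes, and 4 of 7 were lower, where 46.3% of all genes were. Drd2, Pde10a and Tac1 had both NDP-MSH arrays below both PBS arrays, 3 of 7 members where 14.3% of all genes had this. Tac1 differed by -0.26 ± 0.22 (limma, 95% interval -0.76 to 0.25), Pde10a by -0.25 ± 0.17 (-0.65 to 0.14), Drd2 by -0.24 ± 0.21 (-0.72 to 0.25) and Drd1 by 0.23 ± 0.40 (-0.69 to 1.16). Both NDP-MSH arrays and PBS 2 carried Y-linked signal, and the members' median was -0.33 without PBS e/e 2 and 0.29 without PBS e/e 1, so its direction rested on which PBS array was used.

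In wild-type mice, where Mc1r works, the same comparison gave differences between -0.24 (Pde10a) and 0.45 (Drd1) with a median of 0.13, against 0.018 over all genes. The members' median was -0.022 after quantile normalization of the centred values. Of the 7 members 5 were higher, where 55% of all genes were, and none passed the threshold, with adjusted p between 0.598 and 0.962 (limma). Over all genes 0.176% passed. No member had its NDP-MSH and PBS arrays apart, where 25.3% of all genes did with NDP-MSH higher and 18.9% with NDP-MSH lower. Drd1 differed by 0.45 ± 0.40 (95% interval -0.47 to 1.38), Drd2 by 0.18 ± 0.21 (-0.30 to 0.67), Tac1 by 0.18 ± 0.22 (-0.32 to 0.68), Penk by 0.084 ± 0.30 (-0.63 to 0.80) and Pde10a by -0.24 ± 0.17 (-0.63 to 0.16). The median was 0.40 without PBS wild-type 1 and -0.16 without PBS wild-type 2. The NDP-MSH wild-type arrays also held the low cerebellar values, and without NDP-MSH 1, the array with pituitary signal, the members' median was 0.20, against -0.018 without NDP-MSH 2, the array with the high Cdhr1 value.

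The difference of the effects, e/e minus wild-type, passed for no member and for none of the 22180 genes (percent called 0). An unadjusted p under 0.05 was reached by 1711 genes, 7.71% of all. The difference of the effects had a median of -0.13 over the members, or 0.092 after quantile normalization. It was below 0 for 6 of 7, where 52.8% of all genes were. Tac1 had -0.44 ± 0.30 (95% interval -1.15 to 0.27) and Drd2 had -0.42 ± 0.29 (-1.10 to 0.26), with an adjusted p of 0.773 each (limma). A change of sign in the members' median came from single arrays, since it was 0.21 without PBS e/e 1 and -0.47 without PBS e/e 2.

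**Figure D3:**
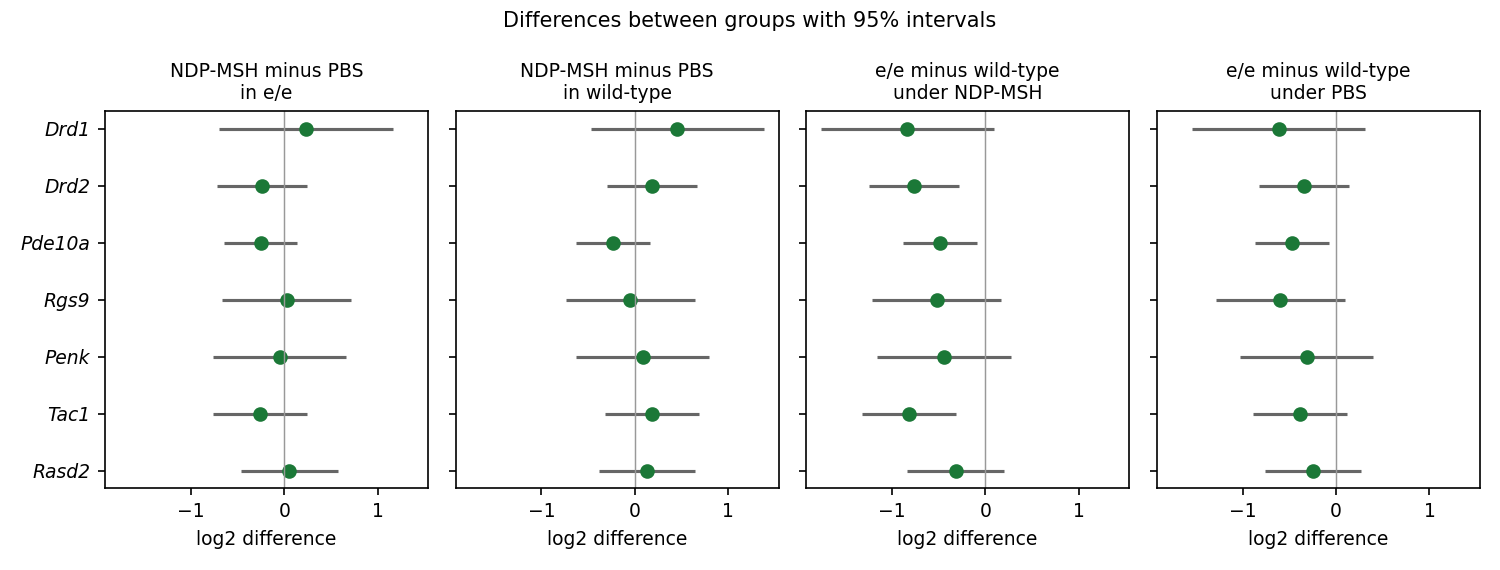
Log2 difference of each of the 7 genes with its 95% interval from the limma fit over all 8 arrays, for NDP-MSH minus PBS in e/e and in wild-type mice and for e/e minus wild-type under NDP-MSH and under PBS. The 2 treatment panels scatter about 0, and all 7 genes lie below 0 in both genotype panels, where the intervals of Drd2, Pde10a and Tac1 (under NDP-MSH) and of Pde10a (under PBS) stay below 0.

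Between genotypes, the members were lower in e/e mice under either treatment. Under NDP-MSH 7 of 7 were lower, where 52.4% of all genes were, with a median of -0.52, against -0.0081 over all genes. Tac1 was lower by the largest margin for its error, at -0.82 ± 0.22 (1.76-fold, 95% interval -1.32 to -0.31, limma adjusted p = 0.156). Drd2 was lower at -0.77 ± 0.21 (1.70-fold, 95% interval -1.25 to -0.28, adjusted p = 0.162) and Drd1 at -0.83 ± 0.40 (1.78-fold, interval -1.76 to 0.093, adjusted p = 0.405). Neither these nor the other 4 passed over all genes, of which 0.338% did. An unadjusted p under 0.05 was reached by 3 of 7 (Drd2, Pde10a and Tac1), where 7.45% of all genes were lower with such a p. Pde10a lay at -0.49 ± 0.17, Rgs9 at -0.52 ± 0.30, Penk at -0.44 ± 0.30 and Rasd2 at -0.32 ± 0.22. Both e/e arrays were below both wild-type arrays for 6 of 7 members, all but Penk, where 23.6% of all genes had this.

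The shared spread of the fit bore on this result. Fitted on the 4 NDP-MSH arrays alone, Drd2 (SE 0.093, adjusted p = 0.0164) and Tac1 (SE 0.14, adjusted p = 0.0479) passed, 2 of 7 members, in a fit that called 477 genes in place of 75. That fit leaves out the PBS arrays, between which these genes differed most. The NDP-MSH e/e arrays carried Y-linked signal and the NDP-MSH wild-type arrays lay near 0 in it, and the cerebellar, pituitary and olfactory values set the wild-type arrays apart, so that genotype, sex-linked signal and the tissue sampled cannot be told apart here. Myelin and oligodendrocyte genes were higher in e/e mice in the same comparison in 9 of 9, with a median of 0.51 and 1 past the threshold, and their median lay between 0.44 and 0.59 with each array left out. Cortical and hippocampal genes were lower like the members in 8 of 10, with a median of -0.14, 0 past the threshold and both e/e arrays below both wild-type arrays for 5 of 10, and the part of these lists in the result was not tested. Without each of the 4 NDP-MSH arrays in turn, the members' median lay between -0.75 and -0.42.

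Under PBS 7 of 7 members were lower in e/e mice as well, where 49.9% of all genes were, with a median of -0.38, against 0.0002 over all genes. None passed, with adjusted p between 0.971 and 0.999 (limma), and no other gene did (percent called 0). An unadjusted p under 0.05 was reached by 1088 genes, 4.91% of all. Pde10a, at -0.47 ± 0.17 (95% interval -0.86 to -0.078), was the 1 member with its genotypes apart, where 16.7% of all genes were lower in this way, and the 1 member with an unadjusted p under 0.05, where 2.56% of all genes were lower with such a p. Rgs9 lay at -0.59 ± 0.30 and Drd1 at -0.61 ± 0.40, both with overlapping arrays. The median was -0.11 without PBS wild-type 1 and -0.17 without PBS e/e 2, the PBS array with high Y-linked values. The treatment and genotype comparisons share arrays, so the lower values in e/e mice under NDP-MSH and the treatment differences are not independent. Averaged over both treatments, a comparison chosen after the values were seen, the members' median was -0.56, and 0 of 7 passed while 7 genes of 22180 did (Pde10a at -0.48 ± 0.12, adjusted p = 0.189, and Tac1 at -0.60 ± 0.15, adjusted p = 0.193, limma).

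Of the 29 other striatal projection neuron genes, 24 were lower in e/e mice under NDP-MSH, with a median of -0.29. With each array left out, 23 or 24 were lower and the median lay between -0.33 and -0.21. Those of smallest p among the lower ones included Bcl11b, a transcription factor that these neurons need to mature, at -0.55 ± 0.13 (limma adjusted p = 0.133). Cnr1 was higher at 0.46 ± 0.11 (adjusted p = 0.13), and was lowest in the NDP-MSH wild-type arrays, in which cerebellar genes were low. Both e/e arrays were below both wild-type arrays for 19 of the 29 and above them for 4, where 23.6% and 20.6% of all genes were. Gpr6, an orphan receptor of the indirect pathway, had -0.11 and -0.35 in NDP-MSH e/e, against 0.42 and 0.77 in NDP-MSH wild-type. Rxrg, a retinoid receptor gene, had -0.097 and -0.66 in NDP-MSH e/e, against 0.32 and 0.93 in NDP-MSH wild-type. Neither of these passed, at -0.83 ± 0.20 and -1.01 ± 0.30, and both were chosen from the list after their values were seen. Bcl11b, Cnr1, Gpr6 and Rxrg had their e/e and wild-type arrays apart under NDP-MSH, so leaving out an array could not change their direction. In the PBS comparison of genotypes 25 of the 29 were lower, with a median of -0.13 and 0 past the threshold, and Adcy5, the striatal adenylyl cyclase, had the smallest p at -0.34 ± 0.13. Pde1b, a calcium-activated phosphodiesterase gene, followed at -0.35 ± 0.16 and Actn2 at -0.38 ± 0.20.

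**Figure D4:**
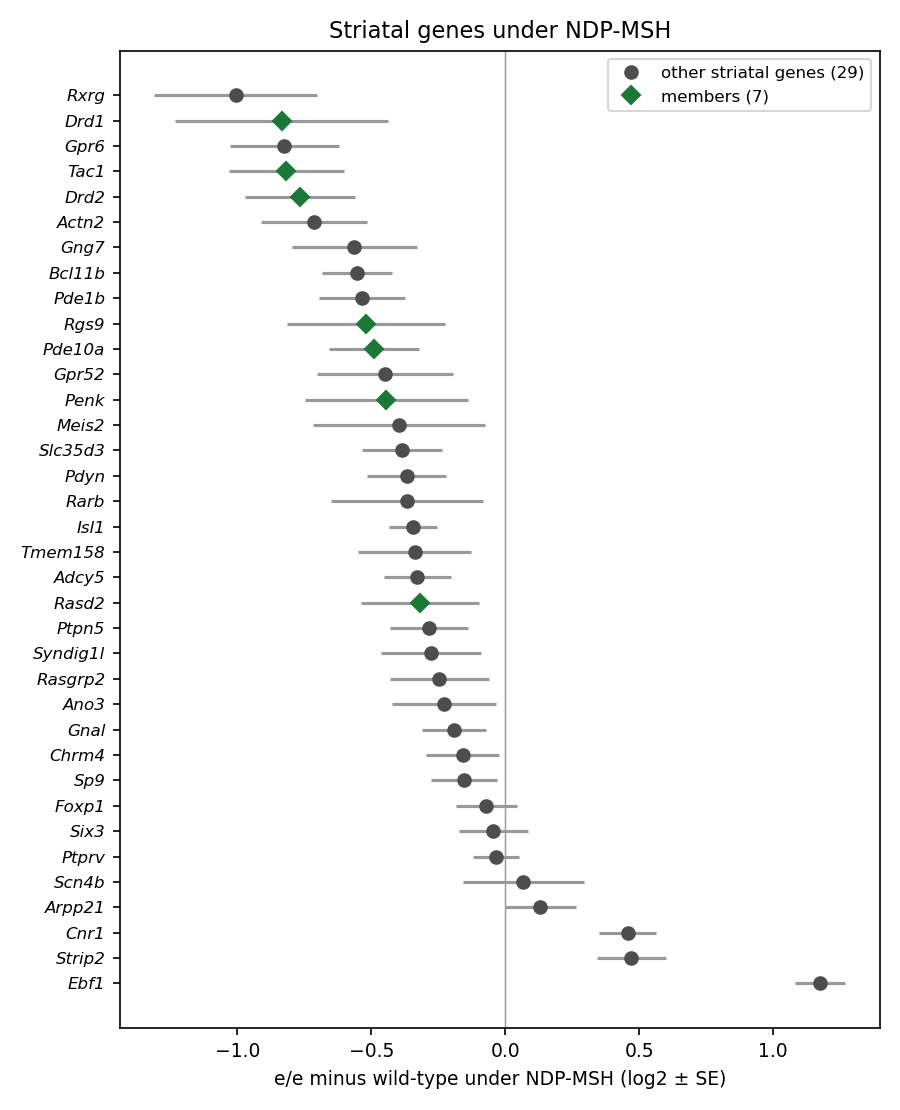
Log2 difference ± SE, e/e minus wild-type under NDP-MSH, of the 7 members (diamonds) and the 29 other striatal projection neuron genes (circles), ordered by size with the lowest at the top. All 7 members and 24 of the 29 others lie below 0, and Ebf1 stands highest at 1.18.

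Of the members and the 29 other projection neuron genes, Ebf1 alone passed the threshold in the 5 comparisons fitted on all 8 arrays. It is a transcription factor gene of direct-pathway neurons that is also expressed in the cerebellum. Ebf1 lay at 0.028 and 0.086 in NDP-MSH e/e, at -0.025 and -0.0036 in PBS e/e, at -1.04 and -1.20 in NDP-MSH wild-type, and at 0.0036 and 0.20 in PBS wild-type. Its 2 low arrays were those in which cerebellar genes were low. Ebf1 fell by 1.22 ± 0.094 in wild-type mice given NDP-MSH (limma adjusted p = 0.0095) and was higher by 1.18 ± 0.094 in e/e than in wild-type mice under NDP-MSH (adjusted p = 0.00982). All 12 cerebellar genes measured were lower in that treatment comparison, 10 of them past the threshold, with Cbln3 and Gabra6 of granule cells at -3.05 ± 0.21 and -3.02 ± 0.20. All 12 had both NDP-MSH wild-type arrays below both PBS wild-type arrays, so leaving out an array could not change their direction. Their median then lay between -2.08 and -1.70, and the number that passed varied with the array left out. The fall of Ebf1 lost its call without PBS wild-type 2 (adjusted p = 0.128), without NDP-MSH wild-type 2 (0.0542) and in a fit of the 4 wild-type arrays (0.0627), and the genotype difference lost it without NDP-MSH wild-type 2 (0.0589), NDP-MSH e/e 1 (0.113) or NDP-MSH e/e 2 (0.0975) and when averaged over both treatments (0.53, adjusted p = 0.0693). With each array left out, the fall lay between -1.31 and -1.12 and the genotype difference between 1.09 and 1.26. Among 8 striatal interneuron genes 4 were higher and 4 lower with NDP-MSH than with PBS in wild-type mice, with a median of -0.011. Sst lay at 0.25 and 0.54 in NDP-MSH wild-type, against -0.089 and -0.37 in PBS wild-type. Npy lay at 0.24 and 0.41, against -0.042 and -0.44. Nos1 went the other way, at -0.36 and -0.25 against 0.029 and 0.28. Of the 8, 2 had both NDP-MSH arrays above both PBS arrays and 2 had them below, where 25.3% and 18.9% of all genes did. Pvalb, the parvalbumin gene that cerebellar Purkinje cells and cortical interneurons also express, is counted among the 12 cerebellar genes too. Pvalb alone of the 8 passed, with a fall of 0.86 ± 0.083 in that treatment comparison (adjusted p = 0.0187). It was higher by 0.81 ± 0.083 in e/e mice under NDP-MSH (adjusted p = 0.019). Its call held without either PBS e/e array in the treatment comparison and was lost without each of the other 6 arrays (adjusted p up to 0.191), and in the genotype comparison it was lost without each of the 4 NDP-MSH arrays (up to 0.163). Strip2 at -0.52 ± 0.13 and Cnr1 at -0.42 ± 0.11 came next by p in wild-type mice without passing (adjusted p = 0.239 each). Like Ebf1, both were lowest in the NDP-MSH wild-type arrays, in which cerebellar genes were low. The 29 genes had a median of 0.098 in wild-type mice, 19 of them higher. In e/e mice the 29 had a median of 0.013 with NDP-MSH, 15 of them higher and 0 past the threshold, and Isl1, a direct-pathway transcription factor gene, had the smallest p at -0.23 ± 0.089. Arpp21 at 0.24 ± 0.13 and Bcl11b at -0.20 ± 0.13 followed.

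Receptors of the peptides that the members encode, and the other dopamine receptors, passed in no comparison (8 of 8 measured). With NDP-MSH in wild-type mice 5 of the 8 were lower, with a median of -0.069, and Tacr1, the substance P receptor gene, had the smallest p at -0.28 ± 0.10 (limma adjusted p = 0.34), ahead of the mu opioid receptor gene Oprm1 at -0.12 ± 0.089. In e/e mice 6 of the 8 were higher, with a median of 0.094, led by p by Oprd1, the delta opioid receptor gene bound by enkephalins, at 0.33 ± 0.20. Drd5, the other receptor of the D1 type, differed by 0.048 ± 0.082 between the genotypes under NDP-MSH. Genes of dopamine neurons, whose fibres reach the striatum while their cell bodies lie in the midbrain, were lower in 5 of 8 in wild-type mice given NDP-MSH. The median of the 8 was -0.30, against 0.018 over all genes. In 4 of the 8 (Ddc, Slc18a2, Slc6a3 and Aldh1a1) both NDP-MSH arrays were below both PBS arrays, where 18.9% of all genes had this. Ddc, for example, lay at -0.071 and -0.30 against 0.45 and 0.15 in PBS wild-type. Nr4a2 was the 1 gene with them above, where 25.3% of all genes were, at 0.26 and 0.22 against -0.14 and -0.40 in PBS wild-type. Aldh1a1 was lowest in the NDP-MSH wild-type arrays (-0.54 and -0.71), in which cerebellar genes were low. It was higher by 0.65 in e/e than in wild-type mice under NDP-MSH (limma adjusted p = 0.0364). In wild-type mice given NDP-MSH Aldh1a1 passed at -0.79 ± 0.084 (adjusted p = 0.0263). The difference in Aldh1a1 lay between -0.87 and -0.70 with each array left out, and its call held without either PBS e/e array and was lost without each of the other 6 (adjusted p up to 0.282). Of the dopamine transporter gene Slc6a3, the single arrays lay at -0.29 and -0.048 in NDP-MSH e/e, -0.72 and 0.21 in PBS e/e, 0.048 and -0.81 in NDP-MSH wild-type, and 0.39 and 0.42 in PBS wild-type, a different order from that of Drd1 and Drd2.

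Genes of the 2 pathways were compared within each array as the mean of Drd1 and Tac1 minus that of Drd2 and Penk. The measure was chosen after the values were seen. It lay at -0.074 and -0.14 in NDP-MSH e/e, at -0.085 and -0.39 in PBS e/e, at 0.072 and 0.16 in NDP-MSH wild-type, and at -0.018 and -0.12 in PBS wild-type. The NDP-MSH wild-type arrays were thus the 2 highest, and PBS e/e 2 was the lowest. In PBS e/e 2 Drd1 lay at -1.05 and Tac1 at -0.37, against an indirect mean of -0.32. The direct-pathway gene Pdyn and the indirect-pathway gene Gpr6 gave another order of the arrays. In NDP-MSH wild-type the centred values of Pdyn were below those of Gpr6 (0.21 and 0.29 against 0.42 and 0.77). In NDP-MSH e/e they were above (-0.0040 and -0.23 against -0.11 and -0.35). Gpr6 varied more widely over the arrays, from -0.35 to 0.77, against -0.23 to 0.35 for Pdyn. Each gene is centred on its own median, so the measure gives no level of one pathway against the other. No test was run on this measure, and with 2 arrays against 2 an exact two-sided permutation test could not give a p below 0.333.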

How the data were processed

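Biotin-labelled cDNA of total brain RNA was hybridised to Affymetrix whole-transcript arrays, 1 per sample, per the labels' protocols. The table of log2 values was deposited by the authors. For its log base, summarisation and normalization, what the authors did is not stated in the labels or the file; base 2 is assumed. Every one of the 33793 rows has a median of 0 to within 5e-07. Probe sets with 1 gene symbol (23521) were averaged per gene (22180 genes), and 1814 with several symbols were left out. Differences were tested, two-sided, by limma 3.58.1 (R 4.3.3) in a fit of all 8 arrays with a mean for each group, which left 4 residual degrees of freedom beside 3.45 prior ones, with Benjamini-Hochberg adjustment over all genes at 0.05. The fit was tested on simulated data with independent normal noise for each gene. It recovered 60% of genes changed by 0.5 and 88% of those changed by 1, and called 8 unchanged genes. The real arrays share deviations over many genes, so these shares give no error rate for the results here. Column medians lay between -0.0043 and 0.0142, and the number of arrays limits the precision. A single-precision step left in the values placed Drd1 and Tac1 at a signal of 4 to 8 before centring and the other 5 genes at 8 or above.

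The members and all gene lists were chosen with earlier results of these data known. The text names all members, genes of the 2 companion lists that passed or had the 3 smallest p in a comparison, and the 8 genes most correlated with the members. Alternatives were a replicate block, array weights, robust moderation, only the 4 arrays compared, leaving out each array, median centring and quantile normalization. The quantile normalization acted on values already centred for each gene, and is not a normalization of signal. Other features were every probe set on its own, genes with 1 probe set, and a signal of 8 or above in the 6 highest arrays. The average over both treatments was added after seeing the data. Further lists of striatal interneuron, choroid plexus and myelin genes had medians of -0.011, -0.29 and -0.31 in wild-type mice given NDP-MSH. Batches were not tested, since slide and scan date were not used here. Plots came from Python 3.11.15 and matplotlib 3.10.9.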

Additional observations from a re-analysis of the deposited data

Results flagged for a closer look

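Among the striatal genes and their receptors, 3 had arrays apart in opposite directions with NDP-MSH in the 2 genotypes, 6.82% of 44 genes, where 6.43% of all genes did. Ebf1 was higher with NDP-MSH in both e/e arrays and lower in both wild-type arrays, with a difference of the effects, e/e minus wild-type, of 1.29 ± 0.13. Bcl11b was lower in e/e and higher in wild-type mice, with -0.55 ± 0.18, and Tacr1 was higher in e/e and lower in wild-type mice, with 0.38 ± 0.14. None of these differences passed over all genes (limma, adjusted p = 0.126, 0.577 and 0.614). That of Ebf1 passed when the fit was kept to genes at a signal of 8 or above (adjusted p = 0.0296), and its adjusted p lay between 0.0655 and 0.715 under the other alternatives.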

How the results depend on the processing

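Of 585 values of members over the alternatives, 542 kept their direction and their side of the threshold, 41 reversed and 2 passed it. Under NDP-MSH the genotype difference reversed in 0 of 124. For 6 of 7 members the arrays of the genotypes lay apart there, so leaving out an array could not reverse it. Settings such as robust moderation changed only the error of a difference. Leaving out an array of a group not compared left the difference as it was. These counts are thus no test of the direction. No member was called with the replicate block. The correlation of replicate differences was 0.44 between the PBS groups, in both of which 7 of 7 members were higher in replicate 1. For the other pairs of groups it lay between -0.25 and 0.18, so the numbers do not justify a block over all groups. Whether the PBS groups share a replicate factor was not tested. Counts over all genes depended on the setting. For NDP-MSH in wild-type mice, 39 genes passed, against 14 with the replicate block, 20 after another quantile normalization, 5 with only the 4 arrays compared, and 0 to 49 when each array was left out. In e/e mice 0 passed, and 0 to 51 with an array left out. The difference of the effects had 0, against 1 after quantile normalization, 5 at a signal of 8 or above and 0 to 7 with an array left out. Between genotypes under PBS 0 passed, and 0 to 4 with an array left out. Under NDP-MSH 75 passed, against 26 after quantile normalization, 116 at a signal of 8 or above, 477 with only the 4 arrays (2 members among them), 7 averaged over both treatments and 0 to 471 with an array left out. The cause was not tested beyond the fewer arrays or genes of these settings.

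Quantile normalization reversed Drd2 (-0.022) and Penk (-0.05) for NDP-MSH in wild-type mice, and Drd1 (0.50), Pde10a (0.15), Penk (0.035) and Rasd2 (0.092) in the difference of the effects. Averaging over both treatments turned Tacr1 to -0.041. With each array left out, NDP-MSH in wild-type mice gave -0.16 to 0.53 for Drd2, -0.51 to 0.039 for Pde10a, -0.50 to 0.40 for Rgs9, -0.26 to 0.43 for Penk, -0.092 to 0.45 for Tac1 and -0.10 to 0.36 for Rasd2. In e/e mice it gave -0.33 to 0.29 for the members' median, -0.33 to 0.80 for Drd1, -0.29 to 0.34 for Rgs9, -0.39 to 0.29 for Penk and -0.26 to 0.37 for Rasd2. The difference of the effects ran from -0.47 to 0.21 for the median, -0.79 to 0.35 for Drd1, -0.29 to 0.26 for Pde10a, -0.38 to 0.52 for Rgs9, -0.48 to 0.22 for Penk and -0.39 to 0.24 for Rasd2. Under PBS the genotype difference ran from -0.69 to -0.11 for the median, -0.69 to 0.0004 for Drd2, -0.65 to 0.029 for Penk, -0.56 to 0.072 for Rasd2 and -0.027 to 0.41 for Drd3, and under NDP-MSH from -0.025 to 0.12 for Drd5. The number of arrays limits the precision.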
